A study of Mus musculus with 8 samples.

Results

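This account concerns bulge cells of mouse skin that carried an inducible Runx1 transgene, set against bulge cells of WT mice. The arrays were chosen by sample title: 2 arrays of Runx1 iTG sorted bulge cells and 2 of WT sorted bulge cells, which make 4 of the 8 arrays of the series. The other 4 arrays hold hair germ cells of the same genotypes and entered the fit only to estimate the spread and to give reference levels. All 18193 genes named by exactly 1 symbol on the array are covered.

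The bulge is the part of the hair follicle that houses slow-cycling stem cells marked by CD34 and keratin 15, and the hair germ just below it holds the cells that first divide when a new hair cycle begins. Runx1 is a transcription factor that binds DNA through its Runt domain, with CBFβ as partner and TLE proteins as co-repressors. In the follicle it is known as a promoter of the passage from rest to growth, and in skin keratinocytes it has been tied to CDK inhibitor, STAT3 and lipid genes.

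WT animals are labelled as controls and the other group as Tet-on Runx1 transgenic, a design in which doxycycline switches a transgene on. Every animal, control or transgenic, received doxycycline in the food at 1 g per kg for 1 day. Its stated purpose was to repress an H2BGFP reporter, and the controls share the drug. Bulge cells were sorted as positive for a keratin 15-GFP reporter, α6-integrin and CD34. The skin was in telogen, the resting phase, at postnatal day 20, and only Runx1 iTG replicate 2 was labelled day 21. The promoter that drives the Tet-on activator, and whether animals were pooled for a sort, are not given in the sources used here. The samples are labelled biological replicates.

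All arrays started from 5 ng of RNA. Deposited median intensities of the 4 bulge arrays lay between 131.9 and 162, and 73.6% to 77.0% of probe sets were above the background limit of 31.1, the 95th percentile of 27 bacterial control probe sets. The rank correlation of gene levels (Spearman, over genes, not independent samples) was 0.953 between the WT arrays, 0.949 between the transgenic arrays and 0.943 to 0.956 between groups. In both genotypes replicate 1 had signal from the Y chromosome (Eif2s3y 2173 in WT and 2425 in Runx1 iTG) and replicate 2 had Xist (11103 and 9973). Replicates of a group therefore differed in sex, while the groups were alike in it. On the second principal component (12.1% of the variance) Runx1 iTG replicate 1 lay at −75.5 and replicate 2 at −9.51, against 26.3 and 36.1 for WT, so replicate 1 stood farther from WT.

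The transgene was visible at its own gene. Runx1 read 658 and 904 in WT bulge and 19461 and 13699 in Runx1 iTG bulge, in units of scaled intensity. Both transgenic arrays lay far above both WT arrays, and Runx1 rose 21.2-fold (log2 difference 4.404, SE 0.25, n = 2 per group, limma adjusted p = 0.000147). These values come from the probe set that was brightest over all arrays. A further probe set read 508 and 519 in WT and 2281 and 2356 in transgenic bulge. The other 4 probe sets of the gene did not follow. The brightest of them in WT bulge read 2964 and 2509.6 there and 1770 and 2420.1 with the transgene, a log2 difference of −0.40, and the remaining 3 differed by −0.30 to 0.21. In hair germ the brightest of these 4 read 1758 and 1378 in WT and 242 and 626 in Runx1 iTG, so there it lay lower while the first lay higher. With the mean of all 6 probe sets the Runx1 difference was 0.99 (adjusted p = 0.689). Which stretch of the transcript each probe set covers was not examined.

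The sort genes were bright in both groups. Cd34, the surface protein on which bulge was gated, read 7079 and 11208 in WT and 4902 and 8596 in Runx1 iTG bulge. The groups overlapped (log2 difference −0.46, SE 1.00, adjusted p = 0.974). In hair germ, gated as CD34-negative, Cd34 was at 53.2 or less on all 4 arrays. Itga6, which encodes α6-integrin, differed by −0.02 (SE 0.22) and its groups overlapped. Its other probe set, at 7441 and 6406 in WT and 4970 and 5845 in Runx1 iTG bulge, was apart and lower (−0.36, SE 0.21). Krt15, the gene behind the reporter, read 31744 and 36189 in WT and 29757 and 27182 in transgenic bulge, so both transgenic arrays lay lower (−0.25, SE 0.23, adjusted p = 0.943).

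Across the array, 4 of 18193 genes passed an adjusted p of 0.05, which is 0.022% of those tested. All 4 were higher in transgenic bulge: Runx1, the glucocorticoid-induced gene Tsc22d3, the carboxylesterase gene Ces1d and the vasopressin receptor gene Avpr1a. No gene was called lower by limma, although 500 genes (2.75%) were lower at an unadjusted p under 0.05, and 584 (3.21%) were higher. The groups did not overlap, with both transgenic arrays above both WT arrays, for 3149 genes (17.3%), and below them for 2992 (16.4%). The median difference over all genes was 0.02 on the log2 scale. Among the 10884 genes whose brighter group reached the median signal of 129.7, 280 were apart and higher by at least 1 log2 unit and 245 apart and lower. Replicates of one group differed as much for 968 of these genes in WT and 1279 in Runx1 iTG bulge.

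**Figure D1:**
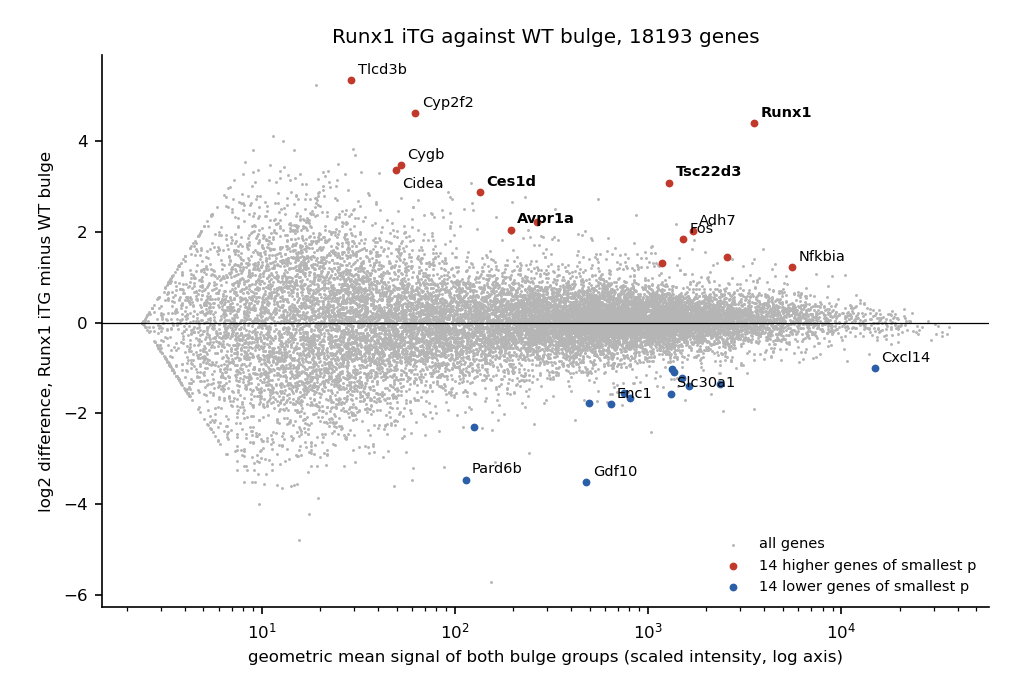
Log2 difference between Runx1 iTG and WT bulge (vertical axis) against the geometric mean signal of both groups (horizontal axis, log scale) for 18193 genes, each a point. Red and blue mark the 14 genes of smallest p in each direction among genes apart between groups and bright enough. Runx1 and Tsc22d3 stand clear of other genes of similar brightness, while dim genes on the left spread widely.

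Tsc22d3 encodes GILZ, a leucine zipper protein that is induced by glucocorticoids and dampens NF-κB and AP-1. It read 424 and 459.5 in WT bulge and 2983 and 4712 in Runx1 iTG bulge. The replicates of each group were close together and far from the other group, and the gene rose 8.5-fold (log2 3.09, SE 0.29, adjusted p = 0.0102). A second probe set was also higher, at 401 and 457 against 1213 and 2391. The next differed less, at 422 and 334 against 574 and 466, and the last was dim and lay lower with the transgene (−1.56), so the probe sets do not agree on the size. With 1 array fewer, Tsc22d3 in bulge still passed in 5 of 8 fits. Its adjusted p was 0.386 and 0.0983 when WT bulge replicate 1 or 2 was absent, and 0.0537 in the absence of Runx1 iTG bulge replicate 1.

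Because the transgene encodes a DNA-binding factor, the 250 bases before the annotated starts of the named genes were searched for the RUNX core. The letters searched were TGTGGT on either strand, which appears as ACCACA when it lies on the opposite one, and likewise the related form TGCGGT. RefSeq windows (GRCm38.p6) were found for 23 of 31 named genes, 33 windows in all. The core occurred in 3 genes, 2 of the 11 higher genes with a window and 1 of the 11 lower ones, against 20.9% of all symbols. The windows that follow, 5′ to 3′ with the core in capitals, are shown because they are the ones that hold it: the Tsc22d3 start that holds one (chrX:140542669-140542918, minus strand, core starting 204 bases before the start) and those of Car12 (chr9:66713436-66713685, plus strand, 229 before) and Cbr4 (chr8:61487484-61487733, plus strand, 185 before). The Avpr1a window (chr10:122448249-122448498, plus strand) is shown as that of a gene that rose and holds no core there.
Tsc22d3: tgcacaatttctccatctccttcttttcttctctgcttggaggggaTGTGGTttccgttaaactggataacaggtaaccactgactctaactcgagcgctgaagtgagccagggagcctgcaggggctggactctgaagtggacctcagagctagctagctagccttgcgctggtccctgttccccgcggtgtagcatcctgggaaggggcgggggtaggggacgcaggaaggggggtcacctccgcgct
Car12: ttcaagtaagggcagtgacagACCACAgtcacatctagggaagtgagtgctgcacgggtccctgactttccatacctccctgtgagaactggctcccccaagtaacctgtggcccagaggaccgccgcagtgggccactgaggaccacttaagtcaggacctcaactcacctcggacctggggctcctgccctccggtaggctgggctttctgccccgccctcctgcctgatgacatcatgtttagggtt
Cbr4: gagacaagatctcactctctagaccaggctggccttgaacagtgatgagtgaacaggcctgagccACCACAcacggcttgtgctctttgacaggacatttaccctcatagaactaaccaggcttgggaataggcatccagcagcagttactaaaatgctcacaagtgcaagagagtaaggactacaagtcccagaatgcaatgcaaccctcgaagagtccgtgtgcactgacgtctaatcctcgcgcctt
Avpr1a: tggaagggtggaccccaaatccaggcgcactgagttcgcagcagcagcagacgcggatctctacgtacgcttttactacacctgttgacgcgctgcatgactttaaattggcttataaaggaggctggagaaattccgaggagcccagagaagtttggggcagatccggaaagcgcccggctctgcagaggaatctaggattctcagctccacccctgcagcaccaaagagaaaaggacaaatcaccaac
The other 2 annotated starts of Tsc22d3 and both of Runx1 had no core in this window, which says nothing of sites elsewhere. Binding was not measured.

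Tsc22d3 belongs to a list of 24 glucocorticoid-responsive genes. Of these, 19 had a higher mean in transgenic bulge (79.2%, against 51.9% of all genes), 9 were apart and higher (37.5%, against 17.3%) and 1 apart and lower (4.17%, against 16.4%), and the median difference was 0.56. Beside Tsc22d3 no member passed. Nfkbia, the inhibitor of NF-κB, read 3512 and 3801 in WT and 9006 and 8070.4 in Runx1 iTG bulge (1.22, SE 0.21, adjusted p = 0.236). Its other 4 probe sets were also apart and higher, by 1.07 to 1.40. Errfi1, a feedback inhibitor of the EGF receptor, read 626 and 596 against 1261 and 2483. The member that was apart and lower was Fam107b, at 1707 and 1192 against 353 and 576 (−1.66, adjusted p = 0.268). Its other 2 probe sets differed by −0.77 and −0.37, and both overlapped between the groups.

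The transgenic arrays differed from each other in this list. Zbtb16, a zinc finger gene used as a marker of glucocorticoid receptor activity and chosen here after its values were seen, read 1269.9 and 2072 in WT, 321 in Runx1 iTG replicate 1 and 5175 in replicate 2. Fkbp5, an inhibitor of the same receptor chosen likewise, read 993 and 1069.9 in WT, and 662 and 3174 on the transgenic arrays. Replicate 1 lay below WT for both genes and replicate 2 above it. Between the replicate 1 arrays the list's median difference was −0.04, and between the replicate 2 arrays it was 1.14. It was 0.04 without Runx1 iTG replicate 2, the array labelled day 21, and 1.03 without Runx1 iTG replicate 1. Tsc22d3, in contrast, differed by 2.82 between the replicate 1 arrays and 3.36 between the replicate 2 arrays, and Nfkbia by 1.36 and 1.09. Runx1 iTG replicate 2 differed from replicate 1 in sex as well as in labelled day. Age, sex and other traits of the sample cannot be told apart here, and the part of each was not tested.

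Ces1d, a carboxylesterase that hydrolyses lipid esters and drugs, read 52.1 and 47.6 in WT bulge and 384 and 352 in Runx1 iTG bulge. The arrays of each group were nearly equal, and the gene rose 7.38-fold (2.88, SE 0.32, adjusted p = 0.0266). Both other probe sets were higher and apart, by 1.86 and 2.42. With 1 array fewer, Ces1d in bulge passed in 2 of 8 fits, those lacking a WT hair germ array. Its adjusted p was 0.386 without WT bulge replicate 1, 0.153 without WT bulge replicate 2, 0.319 without Runx1 iTG bulge replicate 1, 0.117 without Runx1 iTG bulge replicate 2, and 0.16 and 0.164 without replicate 1 or 2 of Runx1 iTG hair germ.

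Ces1d is one of 31 listed enzymes that process foreign compounds, retinoids and aldehydes. Of these, 23 had a higher mean (74.2%, against 51.9% of all genes) and 8 a lower one. The groups were apart and higher for 13 (41.9%, against 17.3%) and apart and lower for 4 (12.9%, against 16.4%), with a median of 0.58, or 0.24 when members below background stand at their bound. Cyp2f2, a cytochrome P450, was below background in WT bulge at 7.57 and 20.9 and read 466 and 207 in Runx1 iTG bulge. That is at least 9.98-fold higher, without passing (adjusted p = 0.0682). Adh7, which oxidises retinol, read 846 and 844 against 5157 and 2284 (2.02, adjusted p = 0.236). Adh7 in bulge passed in 1 of 8 fits with an array fewer, at 2.61 without Runx1 iTG bulge replicate 2 (adjusted p = 0.0264), and differed by 1.43 without replicate 1 (adjusted p = 0.515). The aldehyde dehydrogenase gene Aldh3a1 read 995 and 1305 against 3252 and 3497 (1.57, adjusted p = 0.3). Cyp2g1, chosen after its values were seen, read 270.2 and 170.5 against 839.9 and 2383. The groups did not overlap for any of these 4 genes. Unlike the glucocorticoid list, the list's median was above 0 between both pairs of same-numbered arrays, at 0.35 and 0.42.

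Avpr1a, a vasopressin receptor that signals through Gq, read 78.7 and 116 in WT bulge and 390.1 and 402 in Runx1 iTG bulge. It rose 4.15-fold (2.05, SE 0.25, adjusted p = 0.0418). Its other probe set was dim in bulge (9.11 and 77.8 against 107 and 51.1) and its groups overlapped. With 1 array fewer the call for Avpr1a in bulge was lost in all 8 fits, with adjusted p of 0.386 and 0.0862 without WT bulge replicates 1 and 2, 0.319 and 0.133 without Runx1 iTG bulge replicates 1 and 2, and 0.193 to 0.236 without a hair germ array.

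The rise of Avpr1a in bulge was small beside its level in the neighbouring sort. Hair germ arrays read 10983 and 12298 in WT and 12381 and 12785 in Runx1 iTG, so transgenic bulge reached 3.41% of the WT hair germ mean and WT bulge 0.821%. Ces1d read 2191 and 3952 in WT hair germ, and transgenic bulge stood at 12.5% of that mean. Several of the genes next in order showed like levels across the sorts. Tlcd3b, a ceramide synthase gene, was below background in WT bulge (6.69 and 3.13), read 437 and 78.8 in Runx1 iTG bulge (at least 5.96-fold higher, adjusted p = 0.0821), and 1547 and 1526 in WT hair germ. For Tlcd3b in bulge 1 of 8 fits with an array fewer passed, that without Runx1 iTG bulge replicate 2 (adjusted p = 0.0243), and the others gave 0.243 to 0.536. Its other 3 probe sets overlapped between the bulge groups. Cygb, which encodes the globin cytoglobin, read 11.3 and 22.0 in WT bulge, 160.5 and 192 in Runx1 iTG bulge (at least 5.64-fold higher, adjusted p = 0.0756) and 298 and 293 in WT hair germ. The semaphorin co-receptor gene Nrp2 read 152 and 99.8 in WT bulge, 656 and 496 in Runx1 iTG bulge (2.21, adjusted p = 0.236) and 1649 and 3156 in WT hair germ. Its other 3 probe sets were apart and higher too, by 1.82 to 2.04. The carbonic anhydrase gene Car12 read 800.5 and 692 in WT bulge, 1705 and 2027 in Runx1 iTG bulge (1.32, adjusted p = 0.268) and 4241 and 4984 in WT hair germ.

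**Figure D2:**
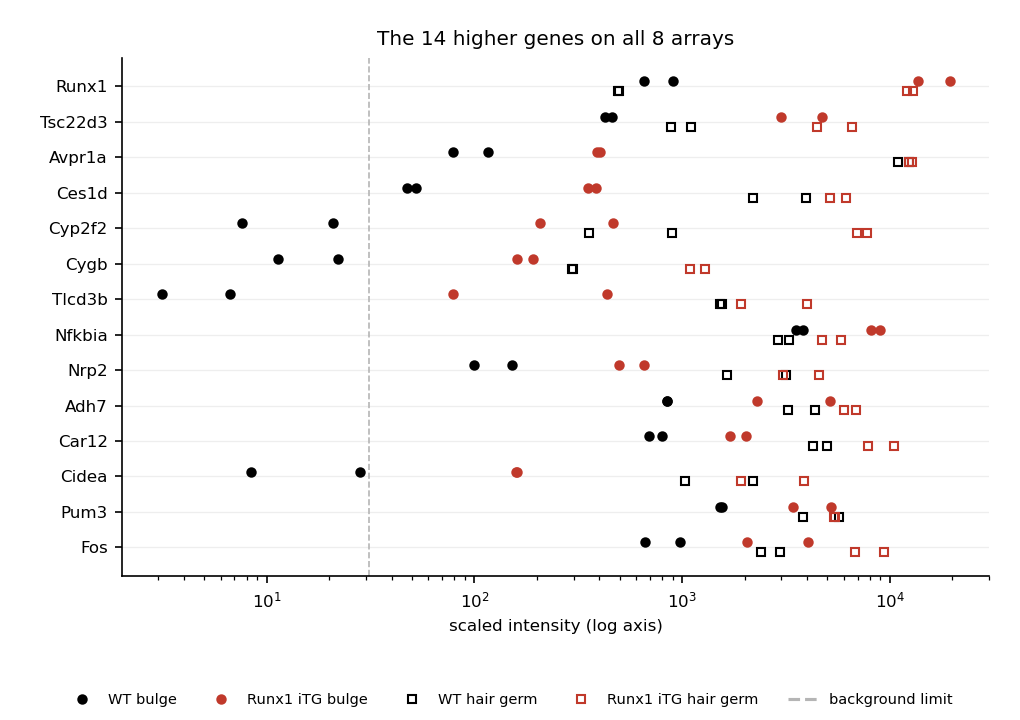
Scaled intensity (log axis) of the 14 higher genes of smallest p on all 8 arrays. Circles are bulge and open squares hair germ, black WT and red Runx1 iTG, each point 1 array, and the dashed line is the background limit of 31.1. For Avpr1a, Ces1d, Tlcd3b and Cidea the transgenic bulge arrays lie between WT bulge and the far brighter hair germ arrays, while for Runx1 and Nfkbia they lie above WT hair germ.

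A list of genes that mark the hair germ sort was therefore set beside these values. It holds the 50 genes with the highest ratio of hair germ to bulge over all 8 arrays, both genotypes counted equally. It was taken from these data, the same bulge arrays enter its ranking, and no test was made. Of the 50, 36 had a higher mean in transgenic bulge (72%, against 51.9% of all genes), with a median of 0.61, or 0.17 at the bound. In this list 22 were apart and higher (44%, against 17.3% of all genes) and 3 apart and lower (6%, against 16.4%). The tally was weaker in a longer list: of the top 200, 117 had a higher mean (58.5%), and the median was 0.23, or 0 at the bound. Of these 200, 55 were apart and higher (27.5%, against 17.3%) and 27 apart and lower (13.5%, against 16.4%). Between the hair germ groups, Runx1 iTG minus WT, the median was 0.59 for the 50 and 0.42 for the 200, against 0.03 for all genes. These lists thus also lay higher with the transgene in hair germ, whose transgenic arrays enter the ranking. For the 50, the summed signal was 2903 and 3474 in WT bulge and 7051 and 6646 in Runx1 iTG bulge, against 79954 and 128505 in WT hair germ. Without the 5 named genes among them, the sums were 2729 and 3279 in WT and 5214 and 5447 in Runx1 iTG bulge. The genes of rank 1 and 2 were at or below background in bulge and have no fold. Pparg, the fat and sebaceous gland regulator, read 9.48 and 3.08 in WT and 30.5 and 32.1 in Runx1 iTG bulge, which is the level of the limit. The potassium channel gene Kcnk1 was below it on all 4 arrays. In bulk sorted cells, more cells of a type and more RNA per cell cannot be told apart. The part of hair germ cells in the bulge sort was not tested.

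Sebaceous and upper follicle genes gave a mixed picture. Of 21 listed, 14 had a higher mean, 6 were apart and higher (28.6%, against 17.3% of all genes) and 4 apart and lower (19%, against 16.4%), with a median of 0.29 (0.16 at the bound). Cidea, a lipid droplet protein of sebocytes, read 27.998 and 8.42 in WT and 160.0 and 159 in Runx1 iTG bulge (at least 5.12-fold higher, adjusted p = 0.272). Scd1, the stearoyl-CoA desaturase known for its part in the sebaceous gland, read 3255 and 2595 against 8699.6 and 5769 (1.29, adjusted p = 0.362). Acaa1b, a peroxisomal thiolase, read 25.5 and 44.6 against 532 and 117 (2.89, adjusted p = 0.386), and it passed in 1 of 8 fits with an array fewer, that without Runx1 iTG bulge replicate 2 (adjusted p = 0.0243). On the lower side was Fasn, the fatty acid synthase gene, at 2306 and 2620 against 1947 and 1339 (−0.61). The melanocortin receptor gene Mc5r, a marker of mature sebocytes chosen after its values were seen, overlapped between the groups near background (27.4 and 54.6 against 20.1 and 45.05). Lipid and cholesterol genes as a list had 10 of 26 members higher and a median of −0.13. Lpl, the lipoprotein lipase gene, read 64.1 and 9.9 against 244 and 88.8.

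Immediate early and AP-1 genes, which answer growth signals and tissue handling within minutes, had 20 of 28 members with a higher mean (71.4%, against 51.9% of all genes). Of these 28, 9 were apart and higher (32.1%, against 17.3%) and 2 apart and lower (7.14%, against 16.4%), and the median was 0.26. Fos, a subunit of AP-1, read 972 and 662 in WT and 4035 and 2059.99 in Runx1 iTG bulge (1.85, adjusted p = 0.3). The mRNA decay factor gene Zfp36 read 1947 and 2062 against 3859.6 and 5941 (1.26). The MAP kinase phosphatase gene Dusp1 read 2602 and 1813 against 4282 and 7655 (1.40). All 3 were apart between the groups, and none passed. The median was 0.60 without Runx1 iTG bulge replicate 1 and 0.19 without replicate 2.

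Genes of the JAK-STAT pathway, through which cytokines and Socs feedback act, had 10 of 21 members apart and higher (47.6%, against 17.3% of all genes) and 2 apart and lower (9.52%, against 16.4%), with a median of 0.22. Socs3, a feedback inhibitor of STAT3, read 435 and 441 in WT and 851 and 733 in Runx1 iTG bulge (0.85, adjusted p = 0.739). The LIF receptor gene Lifr read 849 and 969.8 against 1723 and 2811 (1.28), and Stat5a 1130.2 and 896 against 1539 and 2032 (0.81). None passed. The median was 0.06 without Runx1 iTG bulge replicate 2. Of 18 interferon-responsive genes 12 had a higher mean, and the median of 0.24, or 0.10 at the bound, was −0.21 without WT bulge replicate 1. Psmb8, an immunoproteasome subunit, read 353 and 446 against 862 and 816 (1.08, adjusted p = 0.594). Chemokines and cytokines had a median of 0.07 (0 at the bound) over 25 genes, with Cxcl1, whose product recruits neutrophils, at 26.5 and 58.2 against 212 and 104.

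The lower gene of smallest p was Enc1, an actin-associated BTB-kelch gene, at 1177 and 1208 in WT and 327 and 362 in Runx1 iTG bulge. Its groups were 3.47-fold apart (−1.79, SE 0.25), but it did not pass (adjusted p = 0.0821, and 0.0588 or more under every alternative). Its other 2 probe sets differed by −1.65 and −1.64, and the groups of 1 of them overlapped. In hair germ Enc1 differed by −1.92 (adjusted p = 0.0621). Between the replicate 1 arrays it differed by −1.85 and between the replicate 2 arrays by −1.74.

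Slc30a1 encodes ZnT1, the zinc exporter of the plasma membrane. It read 2121 and 2383 in WT and 713 and 813 in Runx1 iTG bulge (2.95-fold lower, log2 −1.56, SE 0.26, adjusted p = 0.236), with the groups well apart, and its other probe set differed by −1.13. It is one of 19 zinc and metallothionein genes, of which 12 had a higher mean (63.2%, against 51.9% of all genes). The groups were apart and higher for 6 (31.6%, against 17.3%) and apart and lower for Slc30a1 alone (5.26%, against 16.4%), with a median of 0.28. The metallothionein genes Mt1 (5623 and 4603 against 8669.7 and 13123) and Mt2 (8672 and 6048 against 11626 and 19611), whose products bind zinc and which glucocorticoids also induce, lay higher by 1.07 and 1.06. The zinc importer gene Slc39a8 read 2443 and 2881 against 5150.1 and 4973 (0.93). None of the 19 passed, and the median was 0.06 without Runx1 iTG bulge replicate 1.

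Gdf10, the BMP-family ligand BMP3b, read 2000 and 1312 in WT and 86.1 and 234 in Runx1 iTG bulge (11.4-fold lower, log2 −3.51, SE 0.63, adjusted p = 0.272). It is a bulge gene in these data, with hair germ at 31.9 and 31.2 in WT. Pard6b, a subunit of the PAR polarity complex, read 453 and 316 against 13.2 and 89.6 (−3.46, adjusted p = 0.477), with 1 transgenic array below background. Pard6b in bulge passed in 1 of 8 fits with an array fewer, that without Runx1 iTG bulge replicate 2 (−4.84, adjusted p = 0.0243). Without Runx1 iTG bulge replicate 1 it differed by −2.08 (adjusted p = 0.666). Numb, an inhibitor of Notch that is partitioned in asymmetric divisions, read 4502 and 3132 against 1302 and 1654 (−1.36, adjusted p = 0.374), but its other probe set differed by −0.03 and overlapped. Ak4, a mitochondrial adenylate kinase, read 2773 and 2514 against 1309.5 and 773 (−1.39, adjusted p = 0.374), and 2 of its 4 other probe sets were apart in the same direction.

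The chemokine gene Cxcl14 was the brightest of the 14 lower genes of smallest p. It read 20283 and 21931 in WT and 10485 and 10629 in Runx1 iTG bulge, a near-equal step on both pairs of arrays (−0.998, SE 0.22, adjusted p = 0.506), and its other probe set differed by −1.04. In hair germ the gene differed by −2.75 (adjusted p = 0.00229). The last of the 14 lower genes were the palmitoyltransferase gene Zdhhc3, the monocarboxylate transporter gene Slc16a13, the death-associated kinase gene Dapk1, the matrix gene Papln, the chloride channel gene Clcc1 and the carbonyl reductase gene Cbr4. They differed by −1.02 to −2.31 with adjusted p between 0.495 and 0.594. Over the 14 genes of each direction, 20 had further probe sets. Of these 46 probe sets, 28 were apart in the same direction, 15 overlapped and 3 were apart in the opposite direction. Over all genes 17.3% were apart and higher and 16.4% apart and lower. The 14 genes of each direction were chosen as apart on the same arrays, so this tally is no independent support for them.

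**Figure D3:**
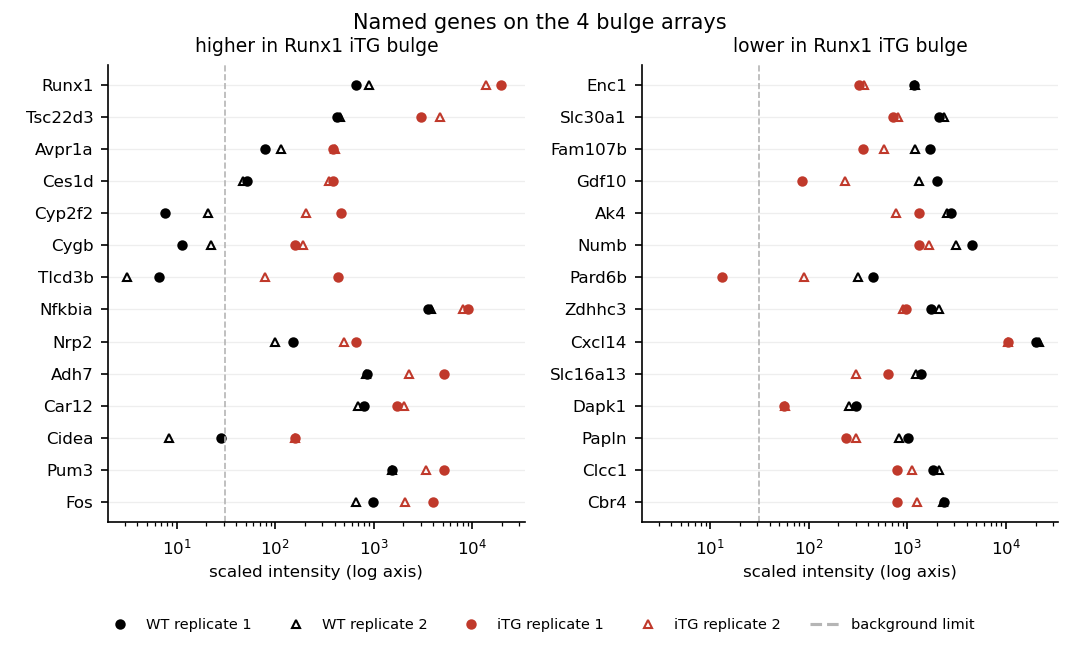
Scaled intensity (log axis) of the 14 genes of smallest p in each direction on the 4 bulge arrays, black for WT and red for Runx1 iTG, circles for replicate 1 and triangles for replicate 2, with the background limit dashed. Runx1, Tsc22d3, Ces1d, Enc1 and Cxcl14 have replicates close together, while Tlcd3b, Pard6b and Gdf10 have transgenic replicates far apart.

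**Figure D4:**
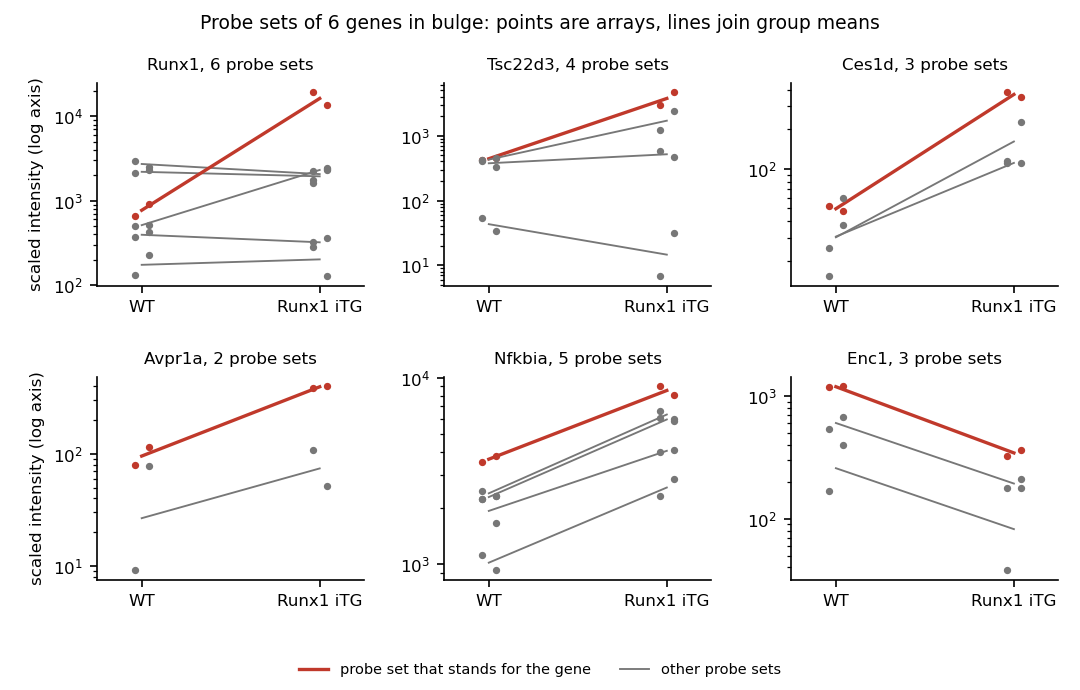
All probe sets of 6 genes in bulge, with each array as a point, lines joining group means and the probe set that stands for the gene in red (scaled intensity, log axis). The 5 probe sets of Nfkbia and the 3 each of Ces1d and Enc1 run in parallel, while for Runx1 2 of 6 lines rise steeply and the others are near level.

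Genes that define the bulge lay on both sides of 0. Of 34 bulge stem cell genes, 15 had a higher mean and 19 a lower one, 6 were apart and higher (17.6%, against 17.3% of all genes) and 9 apart and lower (26.5%, against 16.4%), and the median was −0.05. Lhx2, a regulator of follicle stem cell maintenance, read 9296 and 11080 in WT and 7077 and 7099 in Runx1 iTG bulge (−0.52). The stem cell marker gene Lgr5 read 9956 and 8474 against 7056 and 7456 (−0.34), and Nfatc1, a regulator of quiescence, 6117 and 5531 against 4613 and 5070 (−0.27). Sox9, required to maintain the bulge, lay higher at 7220 and 7665 against 9370 and 8789 (0.29), as did Tcf7l1, a WNT-repressive factor, at 885 and 816 against 1815 and 1188 (0.79). Each of these was apart between the groups and none passed. Foxc1, another quiescence factor, read 4374 and 3993 against 6582 and 6253 (0.62, adjusted p = 0.736), while its relative Foxc2 read 107 and 54.2 against 2.91 and 5.70, at least 2.45-fold lower (adjusted p = 0.374). The WNT inhibitor gene Wif1 read 596 and 243 against 2022 and 1942 (2.38), and the ERK phosphatase gene Dusp6 256 and 213 against 591 and 1338 (1.93).

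In the lists of hair germ and epidermal genes no gene passed. Hair germ and progenitor genes had 16 of 23 members lower (48.1% of all genes were), with a median of −0.28, or −0.07 at the bound, and the median turned to 0.27 without Runx1 iTG bulge replicate 2. Edaradd, an adaptor of the ectodysplasin receptor, read 600.3 and 647 in WT and 347 and 335 in Runx1 iTG bulge (−0.87), and Wnt10b, a WNT ligand of the anagen onset, was below background in WT (11.8 and 21.1) and read 90.0 and 103 (at least 3.09-fold higher, adjusted p = 0.669). Basal interfollicular genes had 11 of 14 members lower (median −0.22), with 5 apart and lower (35.7%, against 16.4% of all genes). Epidermal differentiation genes had 23 of 28 members lower (median −0.13). Of the 28, 8 were apart and lower (28.6%, against 16.4%) and 0 apart and higher (against 17.3%). Dsc1, a desmosomal cadherin of differentiating cells, read 1212 and 1449.9 against 723 and 752 (−0.85), and Krt1, a suprabasal keratin, 15041 and 13604 against 13397 and 4799. For Krt1 only Runx1 iTG replicate 2 stood well below WT. Integrin and basement membrane genes had 22 of 32 members lower (median −0.11). Of the 32, 8 were apart and lower (25%, against 16.4%) and 2 apart and higher (6.25%, against 17.3%). The collagen receptor gene Itga2 read 947 and 1316 against 313 and 454 (−1.57, adjusted p = 0.765), and the laminin receptor gene Itga3 3289 and 3374 against 1646 and 2358 (−0.76).

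Signalling lists had medians close to 0. WNT genes had a median of −0.16 over 33 members. Of these, 9 were apart and lower (27.3%, against 16.4% of all genes) and 7 apart and higher (21.2%, against 17.3%). The feedback inhibitor gene Nkd1 read 873 and 929.97 in WT and 451 and 521 in Runx1 iTG bulge (−0.89). The median of 35 BMP and TGF-beta genes was 0.03. The ligand gene Tgfb2, which acts on the hair germ at the start of regeneration, read 515 and 489 against 1033 and 969.8 (1.00, adjusted p = 0.739), and the receptor gene Tgfbr2 395 and 371 against 774 and 533 (0.75). Of 19 Notch genes 13 were lower (48.1% of all genes were), with a median of −0.19. In this list 7 were apart and lower (36.8%, against 16.4% of all genes) and 4 apart and higher (21.1%, against 17.3%), and none passed. Among the lower ones was the target gene Hes1 at 1269 and 632 against 553 and 128 (−1.75, adjusted p = 0.739), whereas the ligand gene Dll1 read 379 and 499.5 against 963 and 643 (0.85). Hedgehog genes had a median of 0.04, and the co-receptor gene Cdon read 2054 and 2397 against 431 and 1255 (−1.59). Among 11 RUNX factors and partners, the co-repressor genes Tle4 (1808 and 1663 against 1221 and 1068) and Tle5 (3357 and 3337 against 2352 and 2174) lay lower and Tle1 (694 and 605 against 894 and 1143) higher. Cbfb, the partner of Runx1, differed by −0.02, and Runx3 was dim and overlapped between the groups.

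Cell cycle and replication genes did not separate the groups. Of 29, 16 had a higher mean and the median was 0.01. On each side 2 were apart (6.9%, against 17.3% of all genes higher and 16.4% lower). The larger step was between replicate numbers, with replicate 1 above replicate 2 by a median of 0.89 in WT and 0.83 in Runx1 iTG bulge. Mki67, the proliferation marker, read 3434 and 1184 in WT and 3347 and 1106 in Runx1 iTG bulge. Top2a, a topoisomerase of dividing cells, read 1142 and 201 against 848 and 125. Leaving out 1 array therefore moved the list's median, to 0.53 and −0.41 without WT bulge replicates 1 and 2 and to −0.37 and 0.50 without Runx1 iTG bulge replicates 1 and 2. Of 11 CDK inhibitor genes 8 had a higher mean (median 0.17), but 2 were apart, both higher (18.2%, against 17.3% of all genes). The classical inhibitor genes Cdkn1a (2556 and 2918 against 3536 and 2008) and Cdkn1b (4597 and 4803 against 4069 and 5363), chosen after their values were seen, overlapped.

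Metabolic and stress lists had small medians. Glycolysis and hypoxia genes had a median of 0.12 over 22 members, with the vasodilator peptide gene Adm at 53.7 and 32.3 in WT and 602 and 205 in Runx1 iTG bulge (3.08, adjusted p = 0.374) and the mTORC1 inhibitor gene Ddit4 at 5289.6 and 2472 against 8273 and 6533 (1.02). Of the 22, 1 was Pigq, which is not a glycolysis gene and was matched to the listed Gpi1 through an older symbol. The medians were 0.06 for oxidative phosphorylation, 0.09 for cytosolic ribosomal proteins, −0.06 for heat shock, 0.15 for p53 targets and apoptosis, 0.24 for peptide hormone receptors and 0.04 for steroid enzymes, the last 2 at 0 with dim members at their bound. Among the receptors, Avpr1a passed. The endothelin receptor gene Ednrb read 105 and 100.5 in WT and 27.4 and 19.997 in Runx1 iTG bulge, at least 3.30-fold lower without passing.

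**Figure D5:**
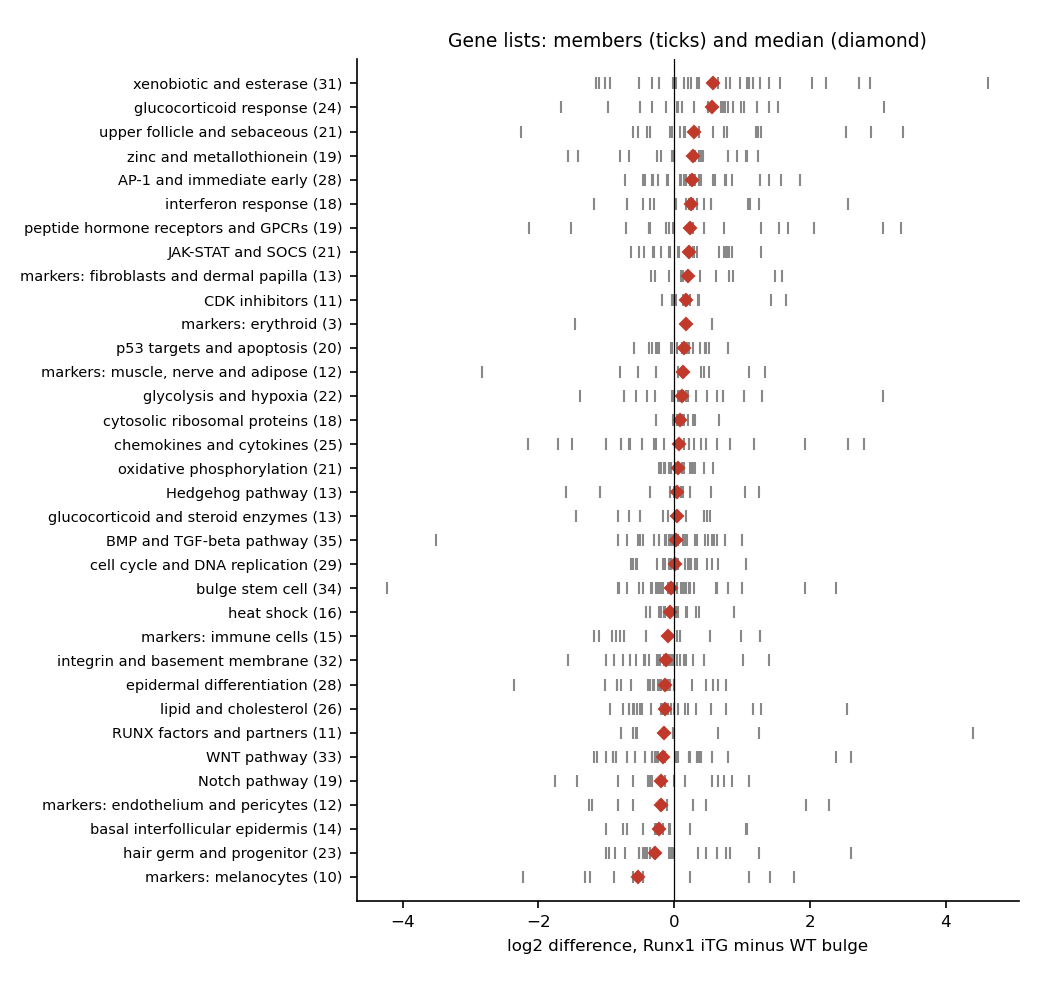
Log2 difference between Runx1 iTG and WT bulge for every member (tick) of 34 gene lists, with the list's median as a red diamond and the number of measured members in brackets. Xenobiotic and esterase genes and glucocorticoid-responsive genes have plotted medians of 0.58 and 0.56 and melanocyte markers one of −0.54. With dim members at their bound these are 0.24, 0.56 and 0, and single members reach far beyond any median.

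Markers of other cells were set side by side by their summed signal. The summed signal of 15 immune markers was 1303 and 2320 in WT and 1228 and 1897 in Runx1 iTG bulge, and that of 12 endothelial and pericyte markers 650.5 and 658 against 614 and 788. Muscle, nerve and adipose markers summed to 968 and 1012 against 811 and 983. The 3 erythroid markers summed to 175 and 273 against 130.2 and 121, lower on both transgenic arrays. Among them the heme synthesis gene Alas2 read 111 and 228 against 55.03 and 60.96. The 10 melanocyte markers summed to 2269 and 3776 against 2240 and 4679, nearly all of it Mitf, and Tyr, Kit and Mlana were near or below background. Fibroblast and dermal papilla markers summed to 25613 and 21950 against 27053 and 30701, higher on both transgenic arrays. Of these 13 markers, 10 had a higher mean (76.9%, against 51.9% of all genes). In the same list 2 were apart and higher (15.4%, against 17.3%) and 0 apart and lower (against 16.4%). Their median was 0.20, or 0.10 at the bound, and it was 0.05 without WT bulge replicate 2 and 0.78 without Runx1 iTG bulge replicate 1. The collagen gene Col1a1 read 4639 and 3217 in WT and 7741 and 6377 in Runx1 iTG bulge (0.86, adjusted p = 0.88). Among the 13 markers, Pdgfra, Lum and Dpt had means below background in both groups, while 10 were above it on at least 1 bulge array. The part of fibroblasts in the results was not tested.

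Whether the difference in bulge was unlike that in hair germ was tested as an interaction, and 0 of 18193 genes passed (0%), with 839 (4.61%) at an unadjusted p under 0.05. So no difference is called particular to bulge. The 5 genes of smallest interaction p each had an adjusted p of 0.91. Avpr1a differed by 2.05 in bulge and 0.11 in hair germ, and Cxcl14 by −0.998 and −2.75. The Ras-association gene Rassf6 read 91.9 and 73.6 in WT bulge and 3.70 and 2.42 in Runx1 iTG bulge, the latter at the lowest value kept, against 79.9 and 160 in WT hair germ and 234 and 199 in Runx1 iTG hair germ. Dusp26, a phosphatase gene, was below background in WT bulge (15.8 and 20.9) and read 68.4 and 99.9 in Runx1 iTG bulge, at least 2.66-fold higher, while hair germ read 518 and 243 in WT and 56.6 and 76.1 in Runx1 iTG. The epidermal lipoxygenase gene Alox12b differed by 0.96 in bulge, where the nearest arrays of the groups almost touched (306 and 567 against 1148 and 569). In hair germ it read 122 and 144 in WT and was below background in Runx1 iTG (21.4 and 8.64).

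Tested over all 45037 probe sets in place of genes, 2 passed (0.00444%), those that stand for Runx1 and Tsc22d3, and 2555 (5.67%) had an unadjusted p under 0.05. Among the probe sets next in order, and chosen for that order, was an Acad9 probe set at 675 and 890.3 in WT and 111 and 174 in Runx1 iTG bulge. A Them5 probe set read 3091 and 2776 against 595 and 589. Acad9 is an acyl-CoA dehydrogenase of complex I assembly and Them5 a mitochondrial acyl-CoA thioesterase. In the gene fit a different, brighter probe set stands for Acad9 and likewise for Them5. Neither gene was among the lower genes of smallest p there, so these drops are those of single probe sets and not of the genes as tested. A probe set shared by the cystatin genes Cstdc5 and Stfa1, which cannot be told apart by it, read 78.8 and 34.2 against 1674 and 744. None of these 3 passed.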

How the data were processed

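Processed intensity values of 45101 probe sets on 8 Affymetrix Mouse 430 2.0 arrays were used as deposited by the authors, on a linear scale. The trimmed mean of each array (2% at each end) was 500 in these values, and the sources used here do not name the program that made them. Control probe sets and those naming no gene or several were left out, and 18193 genes were each represented by the probe set brightest over all arrays. Values were brought to one 75th percentile on every array, raised to a floor of 2.42 and taken to log2. Printed values are scaled intensity. Groups were compared with limma 3.58.1 in R 4.3.3 (means of 4 groups, intensity trend, 4 residual degrees of freedom, Benjamini-Hochberg over all genes, threshold 0.05). "Apart" means that the arrays of the groups do not overlap. Where a group lay below background, the fold is given as "at least", measured from the limit of 31.1. The fit was tested on simulated data. With 2 arrays per group the number of arrays limits the precision.

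Named genes were those that passed, the 14 of smallest p in each direction among genes apart between the groups and bright enough, the 4 of smallest p in each list, the 5 of smallest interaction p, and the sort genes and markers. The 34 lists hold 641 different measured genes. The members and lists were chosen with earlier results of these data known. Promoter windows came from RefSeq (GRCm38.p6), without a check of the start each probe set reads.

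The alternatives tried were other scalings, the mean of probe sets, an offset, a filter on dim genes, no trend, bulge or day 20 arrays alone, a replicate block and leaving out each array.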

Additional observations from a re-analysis of the deposited data

How the results depend on the processing

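The count of 4 genes past the threshold in bulge was 0 with the mean of all probe sets, with no intensity trend, with only the 4 bulge arrays and with only arrays of day 20. It was 2 with an offset in place of the floor and 7 with dim genes left out. Leaving out 1 array gave counts of 1 to 11, with 1 without WT bulge replicate 1 or Runx1 iTG bulge replicate 1 and 11 without Runx1 iTG bulge replicate 2. Runx1 passed in 13 of 17 alternatives, Tsc22d3 in 10, Ces1d in 6 and Avpr1a in 3. The replicate numbers were not shown to pair the samples, since deviations of same-numbered bulge arrays correlated at 0.076 over all genes (0.23 over genes at or above the median signal) and those of the other groups at −0.027 to 0.082, although the numbers track sex, and the fit with the replicate block called 5 genes, adding Tlcd3b. The interaction count ranged from 0 to 3 when 1 array was left out, with 3 without WT hair germ replicate 2, and was 0 in the other alternatives. Itga6, which differed by −0.02, reversed to 0.065 with only arrays of day 20 and ranged from −0.0983 to 0.065 when 1 array was left out, above 0 without WT bulge replicate 1 (0.0142) or Runx1 iTG bulge replicate 2 (0.065). The 28 named genes kept their sign in all 476 values. All 28 were apart between the groups, so leaving out an array or keeping only day 20 could not reverse a sign. Dropping the trend, the bulge arrays alone and the replicate block leave the difference itself unchanged. This sign count is therefore no test of the genes. Of 578 list medians, 553 moved by no more than the spread between replicates, which comes from the same 2 arrays per group and is no independent yardstick. The causes were not tested. Genes below the background limit have only a bound.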
